A study of Mus musculus with 6 samples.

Results

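The thioredoxin and peroxiredoxin system was followed through 10 mouse genes, listed by symbol and matched to NCBI gene numbers, of 23282 genes counted. They are the thioredoxins Txn1 and Txn2, the thioredoxin reductases Txnrd1 and Txnrd2, and the peroxiredoxins Prdx1, Prdx2, Prdx3, Prdx4, Prdx5 and Prdx6. All 10 were found and all 10 passed the expression filter in MLL-AF9 cells. Read counts came from 9 RNA-seq libraries of blood-forming cells on a mixed 129/Sv x C57BL/6 background, and the study asked what loss of Mll4 and added FOXO3 do to these cells. Mll4, also called Kmt2d, encodes a histone methyltransferase, FOXO3 is a transcription factor, and MLL-AF9 is a leukaemia fusion gene that lets marrow cells grow in culture.

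In the first pair of groups, whole bone marrow cells carrying floxed Mll4 alleles were transformed with an MLL-AF9 retrovirus and then infected with a second retrovirus. That second virus held Cre and Tomato Red in the Mll4 deleted group (2 libraries) and Tomato Red alone in the intact group (2 libraries), so Cre itself goes with the deletion. Sorting followed 5 days later. In the second pair, Mll4-/- marrow was transformed with MLL-AF9-neo together with a FOXO3-IRES-GFP virus (2 libraries) or an empty vector (1 library), selected in G418 and sorted for GFP. Mll4 is therefore missing by label from both of these groups, and FOXO3 comes from a retrovirus rather than from its own locus. The third pair was LSK cells, marrow cells without lineage markers but with Sca1 and c-Kit, among which are the blood stem cells. They came from polyIC-treated littermates 2 months of age, all carrying MxCre, whose Mll4 was floxed in the Mll4 deleted group (1 library) and wild type in the other (1 library). About 50 cells went into each LSK library, which was amplified by PCR, whereas MLL-AF9 libraries were made from extracted RNA.

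Thioredoxins are small proteins that pass electrons to oxidised protein thiols, and thioredoxin reductases, which are selenoproteins, recharge them from NADPH. Peroxiredoxins reduce hydrogen peroxide and organic peroxides with a reactive cysteine, which thioredoxin recharges for most of them, whereas Prdx6 draws on glutathione. The cytosol holds Txn1, Txnrd1, Prdx1, Prdx2 and Prdx6, mitochondria hold Txn2, Txnrd2 and Prdx3, the endoplasmic reticulum holds Prdx4, and Prdx5 is spread over several compartments. In blood cells Prdx2 is best known from red cells, where it is an abundant protein, and Prdx1 and Txnrd1 are known targets of the stress factor NRF2.

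Promoter sequence (RefSeq, GRCm38.p6) was held for 9 of the 10 genes in 11 entries, each from 250 bases before to 50 after a start site. It was searched on both strands for the antioxidant response element core that NRF2 binds, TGACNNNGC, and for the FOXO letters GTAAACA. The first was found in 12.4% of 32851 promoters and in 2 of the 11 entries, those of Prdx1 and of 1 Txnrd1 start site. The second was found in 3.65% of promoters and in 0 of the 11. The windows with a match are shown because NRF2 genes are among the pathway genes that changed below. Capitals mark the match, which lies on the opposite strand and so reads as GCNNNGTCA.
Prdx1, chr4:116685426-116685514, + strand: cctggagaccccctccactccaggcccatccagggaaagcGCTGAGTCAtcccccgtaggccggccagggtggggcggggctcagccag
Txnrd1, chr10:82859074-82859162, + strand: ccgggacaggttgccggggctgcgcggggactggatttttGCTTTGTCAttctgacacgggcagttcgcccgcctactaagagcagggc
The matched letters begin 133 bases before the Prdx1 start site and 92 bases before the Txnrd1 one. A match in these letters is a description of the sequence and not a binding site.

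Totals per library ranged from 25895041 to 61950773 counts. A chi-square of counts over its degrees of freedom was 191 for the deleted pair, 146 for the intact pair and 1.97 for the FOXO3 pair, so the FOXO3 pair differed by little more than sampling noise and its spread may be technical. The 2 libraries of a group are the 2 files of 1 deposited sample, so n = 2 counts libraries. The labels do not say whether they came from separate cultures. P-values for MLL-AF9 cells rest on a spread per gene estimated over all 7 MLL-AF9 libraries together. Each comparison therefore draws in part on pairs outside it, the FOXO3 one on the deleted and intact pairs and the Mll4 one on the FOXO3 pair. Foxo3 itself stood at 1292 and 1309 CPM (reads of a gene scaled to the library total) in the FOXO3 libraries, against 27.3 CPM in the empty vector library. Kmt2d counts did not check the deletion, since the counted exons are not split into deleted and kept ones. In MLL-AF9 cells Kmt2d was not lower where Mll4 is missing by label, with 95.6 and 73.7 CPM in the deleted libraries, against 79.5 and 61.8 CPM in the intact ones, and with 102 and 115 CPM in the FOXO3 libraries and 116 CPM in the empty vector library. Kmt2d was not lower in LSK cells with the deleted label either, at 13.9 CPM, against 1.88 CPM in wild type LSK cells. Such counts cannot settle whether a label is right. The groups are called by their labels throughout. Each of the deleted and intact pairs joined 1 library with high Xist (771 CPM in deleted 1 and 687 CPM in intact 2) to 1 with low Xist. The Y-chromosome gene Ddx3y ran the other way. It stood at 0.161 CPM in deleted 1 and 0.121 CPM in intact 2, against 41.3 CPM in deleted 2 and 52.0 CPM in intact 1. By these genes each of the 2 pairs held 1 female-type and 1 male-type library, so its libraries came from different animals. In bulk RNA fewer cells of a type and less RNA per cell cannot be told apart.

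**Figure D1:**
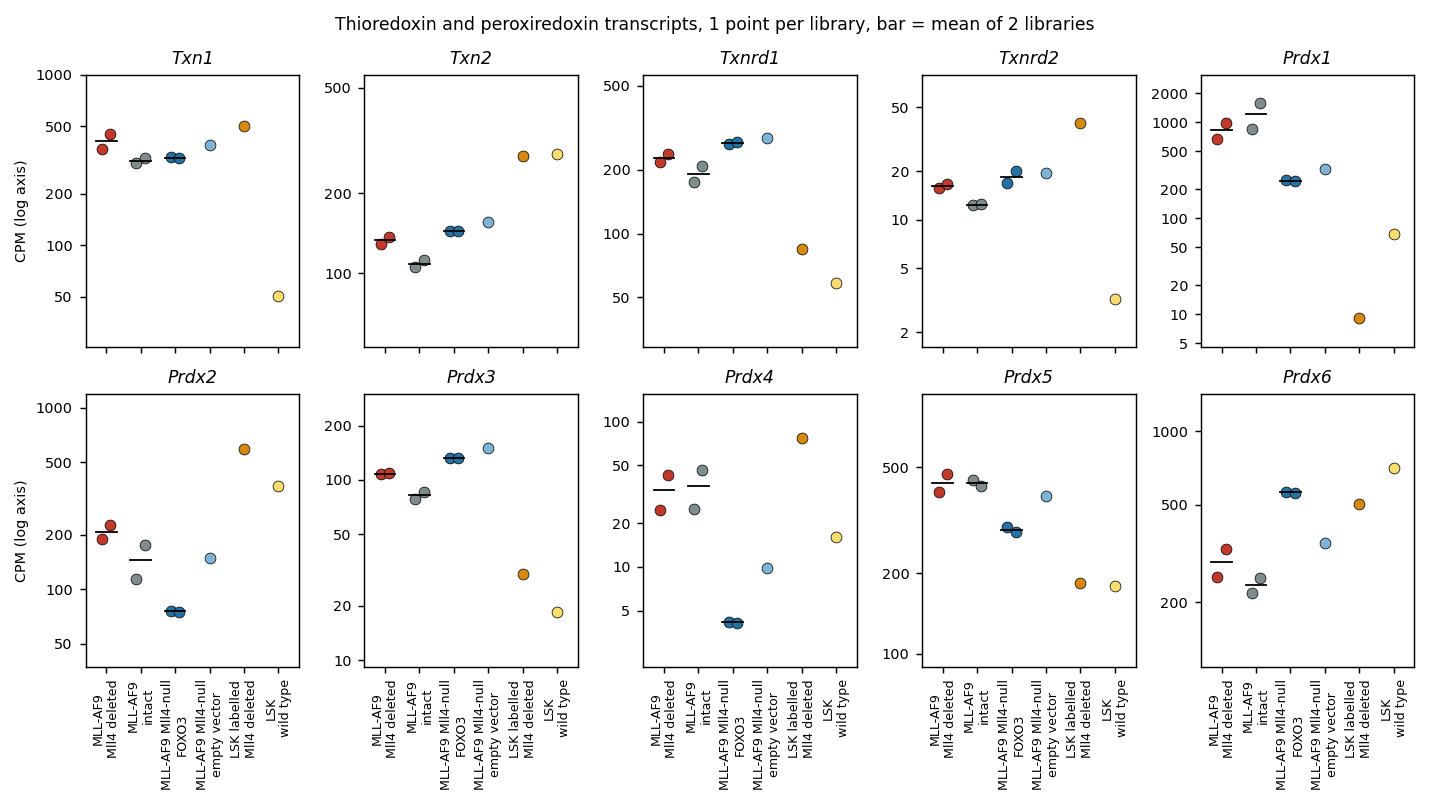
CPM on log axes, 1 point per library, for each gene in the 6 groups; bars are means of groups with 2 libraries. Prdx1 and Prdx4 differ most among the MLL-AF9 groups, and Txn1, Txnrd2, Prdx1 and Prdx4 lie far apart in the LSK pair.

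How far each gene ranged over the 7 MLL-AF9 libraries differed widely, around the level usual for all genes. Here and in the MLL-AF9 comparisons, levels are CPM scaled with edgeR's TMM factors, called normalised CPM. The highest library stood over the lowest by 1.22-fold for Txn2, 1.31-fold for Txnrd2, 1.33-fold for Txnrd1, 1.52-fold for Txn1 and 1.58-fold for Prdx3. All 3 of the mitochondrial genes are among these 5. The median over 9283 genes averaging 10 CPM or more was 1.97-fold, so that 5 members lay below it and 5 above. Prdx6 with 2.06-fold and Prdx5 with 2.08-fold were near the median, and above it were Prdx2 with 3.28-fold, Prdx1 with 9.10-fold and Prdx4 with 15.8-fold. Prdx1, Prdx4 and Prdx5 shared both their highest library, intact 2, and their lowest, FOXO3 2, whereas Prdx6 was highest in FOXO3 1. The ranges also span the differently transformed pairs of groups. Prdx1 averaged 816 normalised CPM in the deleted group, against 302 in the empty vector library, with Mll4 missing by label from both. Prdx4 stood at 33.2 and 9.15 in these groups, while Prdx3 went the other way, at 106 and 139. The part of the transformation was not tested.

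In MLL-AF9 cells with Mll4 deleted, the thioredoxins, the reductases, Prdx3 and Prdx6 stayed within 1.09-fold of intact cells in fitted level, and Prdx1 was 1.80-fold lower without passing the test. Of the 10 genes, 0 had an adjusted p under 0.05 in edgeR's quasi-likelihood test, while 14.9% of 14997 genes did (7.97% higher and 6.94% lower). The count was also 0 at an unadjusted p of 0.05, which 33.9% of genes passed, and 0 with DESeq2. The share of all genes depends on the libraries in the fit, since with the compared libraries alone 0 genes passed the adjusted threshold. The median log2 fold change of the 10 was 0.02 and the median of its size 0.12, beside -0.03 and 0.39 over all genes tested. A p that misses the threshold does not show equal levels, so the values follow.

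Of the thioredoxins, cytosolic Txn1 had 356 and 444 normalised CPM in the deleted libraries, against 340.4 and 409 in the intact ones. Its mitochondrial counterpart Txn2 had 126 and 135 normalised CPM in deleted libraries and 118 and 141 in intact ones. The groups overlapped for both, with log2 fold changes of 0.09 ± 0.16 and 0.01 ± 0.12 (SE). The reductases were as close. Cytosolic Txnrd1 had 212 and 233 normalised CPM in deleted libraries and 197 and 262 in intact ones (log2 fold change -0.04 ± 0.16), and mitochondrial Txnrd2 had 15.4 and 16.4 in deleted libraries and 13.8 and 15.6 in intact ones (0.11 ± 0.15). Both reductases overlapped between the groups.

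Among the peroxiredoxins the widest difference was in Prdx1, the abundant cytosolic form. It had 658 and 974 normalised CPM in deleted libraries, against 961 and 1970.4 in intact ones. Intact 2 stood alone at the top, while deleted 2 and intact 1 were alike, and the groups overlapped. The log2 fold change was -0.85 ± 0.37 (edgeR adjusted p = 0.169, with 0.0684 to 0.592 over the alternatives). Without intact 2 the estimate was -0.24, without deleted 1 it was -0.52, and without intact 1 it was -1.27. Prdx4, the endoplasmic reticulum form encoded on the X chromosome, was also highest in intact 2, at a lower level. It had 24.2 and 42.2 normalised CPM in deleted libraries and 28.2 and 58.5 in intact ones, so that deleted 2 stood above intact 1. Each group held a low and a high library, and the log2 fold change was -0.39 ± 0.40.

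Prdx5, a peroxiredoxin of several compartments, was the 1 gene of the 10 whose groups did not overlap, as was so for 56.9% of all genes tested, 30.0% on the lower side as here. It had 394 and 461 normalised CPM in deleted libraries, against 504 and 533 in intact ones, a log2 fold change of -0.28 ± 0.12 (edgeR adjusted p = 0.179, with 0.0673 to 0.994 over the alternatives). With scaling by total counts, which puts the median of all genes at 0.24 in place of -0.03, the estimate for Prdx5 was 0.002. Cytosolic Prdx2 had 184 and 220.4 normalised CPM in deleted libraries and 129 and 219 in intact ones, so that only intact 1 stood lower. Mitochondrial Prdx3 lay at 106 and 107 in deleted libraries and at 87.9 and 108 in intact ones. Prdx6 lay at 247 and 324 in deleted libraries and at 246 and 315 in intact ones. These 3 overlapped, with log2 fold changes of 0.22 ± 0.26, 0.12 ± 0.12 and 0.03 ± 0.19. Under total-count scaling Prdx3 was the 1 member that passed the threshold (adjusted p = 0.0389, with 0.0389 to 0.890 over the alternatives).

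Several sets of cell type markers moved between these groups. Late neutrophil markers overlapped, summing to 10715 and 12991 CPM in deleted libraries and to 11709 and 5469 CPM in intact ones. Their genes went both ways, with Camp higher and Mmp9 and Retnlg lower in edgeR. The 8 monocyte and macrophage markers summed to 4525 and 10223 CPM in deleted libraries, against 21887 and 31958 CPM in intact ones, with Lyz2 the highest. Summed primary granule markers were 10201 and 13608 CPM in deleted libraries and 1711 and 2446 CPM in intact ones, and markers of dividing cells were 1568 and 1786 CPM in deleted libraries and 677 and 610.0 CPM in intact ones. Megakaryocyte and platelet markers summed to 402 and 474 CPM in deleted libraries, against 666 and 511 CPM in intact ones. Of these 6 markers 4 fell in edgeR at an adjusted p under 0.05, beside 6.94% of all genes tested. In each pair the library with more macrophage marker RNA also had the higher normalised CPM of every member, not of Prdx1 and Prdx4 alone. The part of these markers in the values was not tested.

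**Figure D2:**
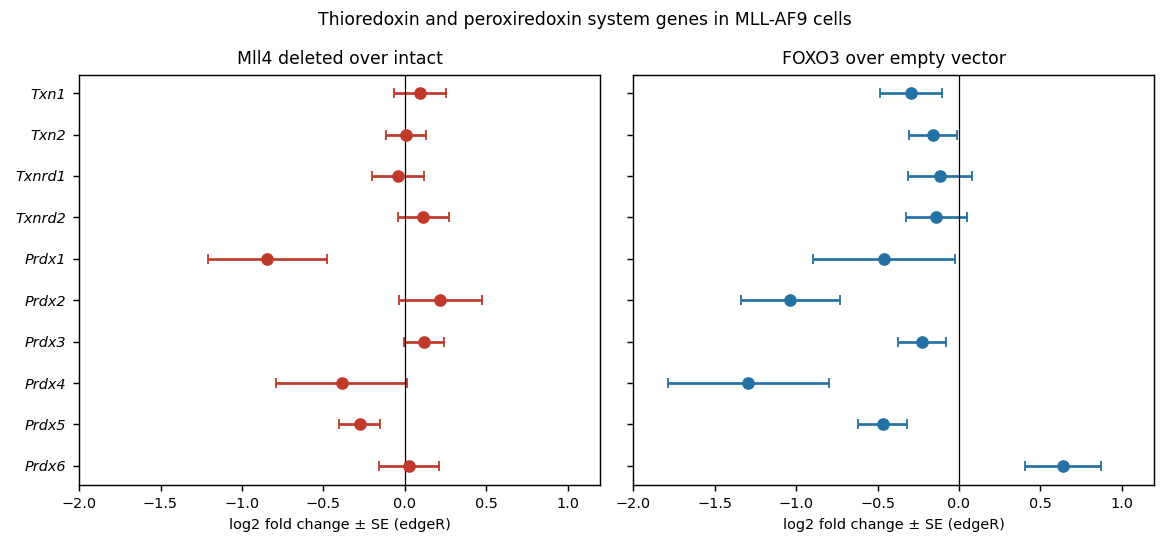
Log2 fold changes with SE from edgeR for the 10 genes, Mll4 deleted over intact (left) and FOXO3 over empty vector (right). No point passed the adjusted threshold, and Prdx6 was the 1 gene above 0 with FOXO3.

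With FOXO3 in Mll4-null MLL-AF9 cells, Prdx4 was 2.45-fold and Prdx2 2.05-fold lower in fitted level than with the empty vector, and Prdx6 was 1.56-fold higher. Of the 10 genes, again 0 had an adjusted p under 0.05 in edgeR, as 7.13% of 14997 genes did (2.20% higher and 4.93% lower). At an unadjusted p of 0.05, passed by 23.1% of all genes, the count was 4, with Prdx2, Prdx4 and Prdx5 lower (14.3% of all genes) and Prdx6 higher (8.76%), and DESeq2 called Prdx2 alone. In 10 of 10 the FOXO3 libraries did not overlap the empty vector library, 9 lower and Prdx6 higher. With 1 library on a side that was so for 90.6% of all genes, 49.7% lower and 40.8% higher. The members' median log2 fold change was -0.26, beside -0.04 over all genes tested.

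Prdx2 had 67.9 and 67.2 normalised CPM in the FOXO3 libraries, against 138 in the empty vector library. Both FOXO3 libraries stood at about the same level below it, and the log2 fold change was -1.03 ± 0.30 (edgeR adjusted p = 0.112, with 1.36e-88 to 0.402 over the alternatives). DESeq2 gave Prdx2 an adjusted p of 0.0236 at -1.02. Erythroid markers, of interest because Prdx2 is abundant in red cells, summed to 1.56 and 1.18 CPM in FOXO3 libraries, against 38.7 CPM in the empty vector one. Klf1, an erythroid transcription factor, was the highest of them in the empty vector library at 11.1 CPM. Of the haemoglobin genes listed, Hba-a2, Hbb-b1 and Hbb-b2 were at 0 in the empty vector library, and Hba-a1 joined them at 0 in both FOXO3 libraries. Erythroid markers summed to 2.9 and 1.9 CPM in deleted libraries, with Prdx2 at 184 and 220.4 normalised CPM. In intact libraries the sums were 5.1 and 2.5 CPM, with Prdx2 at 129 and 219. In LSK cells they were 1.08 CPM under the deleted label and 94.1 CPM in the wild type library, with Prdx2 at 595 and 372 CPM. The part of these markers in the Prdx2 values was not tested.

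Prdx4 had 3.76 and 3.70 normalised CPM in the FOXO3 libraries, against 9.15 in the empty vector library. The FOXO3 libraries held its lowest levels of the 9 libraries, and the log2 fold change was -1.29 ± 0.49 (edgeR adjusted p = 0.196, with 1.14e-24 to 0.528 over the alternatives). Prdx5 had 266 and 257 normalised CPM with FOXO3, against 362 with the empty vector, a log2 fold change of -0.47 ± 0.15. Prdx1 had 222 and 217 with FOXO3, against 302 with the empty vector, at -0.46 ± 0.44. Prdx6 went the other way. It had 506 and 504 normalised CPM in the FOXO3 libraries, against 324 in the empty vector library, with a log2 fold change of 0.64 ± 0.23 (edgeR adjusted p = 0.176, with 2.47e-69 to 0.497 over the alternatives). Prdx6b, a close copy that could share its reads, stayed between 0.208 and 1.24 CPM in MLL-AF9 libraries.

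The lowest p-values in these ranges came from a fit of the 3 compared libraries alone, in which 9 of the 10 genes passed, 8 lower and 1 higher. Its spread rests on the FOXO3 pair, which differed by little more than sampling noise, and that fit called 9710 genes in all. The thioredoxins, the reductases and Prdx3 were the steadiest. Txn1 had 294 and 292 normalised CPM with FOXO3, against 360.1 with the empty vector, and Prdx3 had 119 and 118 with FOXO3, against 139 with the empty vector. Txn2 had 129 and 129.5 with FOXO3, against 144 with the empty vector. Log2 fold changes were -0.30 ± 0.19 for Txn1, -0.16 ± 0.15 for Txn2 and -0.23 ± 0.15 for Prdx3. Txnrd1 had 237 and 243 with FOXO3, against 261 with the empty vector (-0.12 ± 0.20), and Txnrd2 had 15.0 and 17.9 with FOXO3, against 18.2 with the empty vector (-0.14 ± 0.19).

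Macrophage markers summed to 179 and 178 CPM under FOXO3, against 619 CPM under the empty vector. Primary granule markers summed to 20098 and 20031 CPM under FOXO3, against 12484 CPM under the empty vector. Late neutrophil markers summed to 3435 and 3328 CPM under FOXO3, against 7925 CPM under the empty vector. Markers of dividing cells were 3045 and 3086 CPM with FOXO3, close to 2932 CPM with the empty vector. Megakaryocyte and platelet markers summed to 33.7 and 34.5 CPM under FOXO3, against 182 CPM under the empty vector. Stem and early progenitor markers summed to 205 and 211 CPM under FOXO3, against 226 CPM under the empty vector, with Kit the highest in all 3 libraries and a median log2 fold change of -1.80 over the 8 markers. The part of these shifts in the peroxiredoxin values was not tested.

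The peroxiredoxin with the most transcript differed from group to group, with Prdx1 first in intact MLL-AF9 cells, Prdx6 with FOXO3 and Prdx5 with the empty vector. Shares were taken from CPM per kilobase of transcript, since levels of different genes compare only per length, and again per kilobase of coding sequence. In the deleted libraries Prdx1 took 31.4% and 36.1% of the summed peroxiredoxin level per kilobase of transcript, against 38.5% and 51.1% in the intact ones. In deleted 1 Prdx5 stood a little above it at 34.2%, though per coding kilobase Prdx1 led there too. Prdx6 led in both FOXO3 libraries with 32.8% and 33.3%, just above Prdx5 with 32.6% and 32.1%, whereas Prdx5 led with the empty vector at 38.6% and Prdx6 held 18.3% there. Per coding kilobase Prdx6 took 41.4% and 41.9% with FOXO3, against 24.3% with the empty vector. In LSK cells Prdx2 led with 44.6% under the deleted label, and Prdx6 led in the wild type one with 40.8%. These shares are descriptions, with no test.

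**Figure D3:**
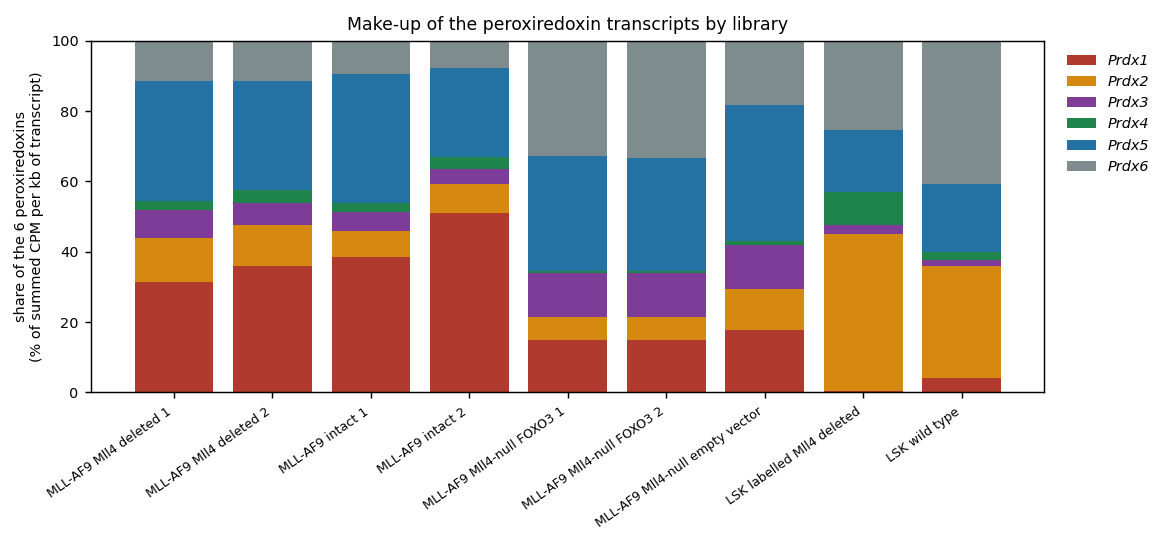
Share of each peroxiredoxin in the summed CPM per kilobase of transcript, 1 bar per library. Prdx1 takes up to 51.1% in intact cells and Prdx6 32.8% and 33.3% with FOXO3, while Prdx1 is almost missing from LSK cells labelled Mll4 deleted.

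In LSK cells there was 1 library a genotype, labelled Mll4 deleted or wild type, so ratios have no replicate check and intervals (95% exact binomial) cover counting error only. A ratio of at least 2-fold either way was reached by 4 of the 10 genes, but also by 63.0% of 10174 genes averaging 1 CPM or more and by 60.0% of those averaging 10 CPM or more. A difference of that size was thus the common case between these libraries. The members split into 3 higher (28.1% of all genes) and 1 lower (34.9%). Txn1 had 502 CPM in the library labelled Mll4 deleted, against 50.6 CPM in the wild type one, 9.92-fold higher (log2 3.31, interval 3.23 to 3.39). Txnrd2 had 39.9 CPM in the library labelled Mll4 deleted, against 3.23 CPM in the wild type library, 12.3-fold higher (3.63, interval 3.31 to 3.96). Prdx4 had 77.4 CPM in the library labelled Mll4 deleted, against 16.0 CPM in the wild type library (2.27, interval 2.12 to 2.43).

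Prdx1 was the 1 gene past 2-fold in the other direction, with 9.08 CPM in the library labelled Mll4 deleted, against 69.1 CPM in the wild type one (log2 -2.93, interval -3.13 to -2.73). The mitochondrial thioredoxin Txn2 was level, at 276 CPM in the library labelled Mll4 deleted, against 281 CPM in the wild type library, although its reductase partner Txnrd2 stood far apart. Prdx5 was level as well, at 184 CPM under the deleted label and 179 CPM in the wild type library. Prdx2 had 595 CPM in the library labelled Mll4 deleted, against 372 CPM in the wild type one, and both Prdx3 (30.2 CPM under the deleted label, 18.4 CPM in the wild type library) and Txnrd1 (84.7 CPM under the deleted label, 58.4 CPM in the wild type library) differed by less than 2-fold. Prdx6 had 504 CPM in the library labelled Mll4 deleted, against 709 CPM in the wild type one, with its copy Prdx6b at 12.6 CPM under the deleted label and 15.2 CPM in the wild type library. Klf1 stood at 0 in the library labelled Mll4 deleted, against 92.8 CPM in the wild type one, while the 4 haemoglobin genes listed were at or near 0 in both. Stem and early progenitor markers summed to 735 CPM under the deleted label and 1039 CPM in the wild type library, with Cd34 the highest in both. Late neutrophil markers summed to 1.47 CPM under the deleted label and 0.0376 CPM in the wild type library, and macrophage markers to 44.9 CPM under the deleted label and 15.4 CPM in the wild type library. The part of these differences in the ratios was not tested.

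**Figure D4:**
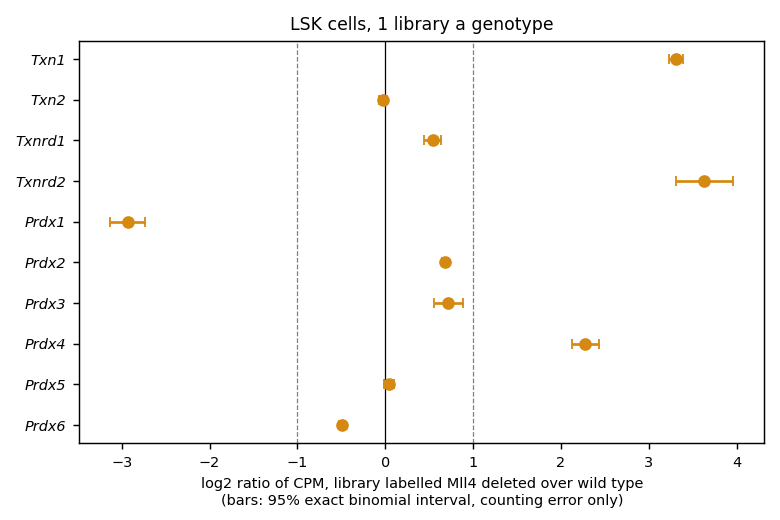
Log2 ratio of CPM in LSK cells, the library labelled Mll4 deleted over wild type, with 95% exact binomial intervals for counting error; dashed lines mark 2-fold. Txnrd2, Txn1 and Prdx4 lie above the upper line, Prdx1 below the lower one, and the other 6 between them.

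Across all 6 groups, in plain CPM and without a test because the 2 kinds of library were made differently, an LSK group was highest for 6 genes. These were Txn1, Txn2, Txnrd2, Prdx2, Prdx4 and Prdx6. The MLL-AF9 groups themselves came from differently made transformations, so their order is a description as well. MLL-AF9 groups were highest for Txnrd1, Prdx1, Prdx3 and Prdx5, and for these 4 every MLL-AF9 library lay above both LSK libraries. For Prdx1 the deleted group (834 ± 226 CPM, SD, n = 2) and the intact group (1213 ± 507 CPM, SD, n = 2) were the highest and overlapped. The FOXO3 group (245 ± 5.08 CPM, SD, n = 2) and the empty vector above it (327 CPM) came next, and both LSK groups were lowest. For Prdx2 both LSK groups were highest, and the deleted group (207 ± 25.4 CPM, SD, n = 2) stood above the intact group (145 ± 42.6 CPM, SD, n = 2). That separation goes with the scaling, since the deleted and intact groups overlapped for Prdx2 in normalised CPM. The FOXO3 group was lowest for Prdx2 (75.4 ± 0.783 CPM, SD, n = 2), whereas the empty vector (149.5 CPM) overlapped the intact group. The ratio of Txn1 to Txn2 per kilobase of transcript was 2.79 to 4.07 in MLL-AF9 libraries, 2.25 in LSK cells with the deleted label and 0.223 in wild type ones, where Txn2 was thus the higher of the pair. The ratio of Txnrd1 to Txnrd2 was 7.34 to 9.06 in MLL-AF9 libraries, 1.15 in LSK cells with the deleted label and 9.74 in wild type ones.

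The gene most like each member over the 7 MLL-AF9 libraries was taken as the one with the smallest root mean square difference of log2 normalised CPM about its own mean, among 9261 genes. It was Hspa5 for Txn1 (0.05), Tbccd1 for Txn2 (0.04), Asb3 for Txnrd1 (0.05), Mtmr2 for Txnrd2 (0.07) and Cox7c for Prdx3 (0.04). It was Arf5 for Prdx5 (0.06), Ccdc22 for Prdx6 (0.07) and Tubb6 for Prdx2 (0.11). Nothing came as close to Prdx1 and Prdx4, whose nearest were Rnf149 (0.19) and Tbc1d16 (0.22). Among the members themselves Prdx1 and Prdx4 were nearest to each other, though at 0.48, and Txn2 and Txnrd1 at 0.07. Likeness here includes differences between the differently transformed pairs of groups.

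Around these 10 genes, 63 genes of 7 neighbouring pathways were read from the same fits, and 17 passed the threshold after Mll4 loss (14.9% of all genes tested did) and 6 with FOXO3 (7.13% of all genes), the second a share close to that of all genes. Of 10 thioredoxin partners and regulators, 2 rose and 1 fell after Mll4 loss, beside 7.97% and 6.94% of all genes tested. All 3 encode subunits of ribonucleotide reductase, which makes the building blocks of DNA. Rrm1 averaged 248 ± 48.9 normalised CPM in deleted and 87.8 ± 24.1 in intact libraries (SD, n = 2 each), and Rrm2 averaged 235 ± 7.19 in deleted and 74.3 ± 13.5 in intact libraries. Rrm2b, the p53-induced subunit, averaged 10.8 ± 2.41 in deleted libraries and 22.5 ± 1.66 in intact ones. Txnip, which binds and inhibits thioredoxin, averaged 496 ± 244 in deleted libraries and 976 ± 5.05 in intact ones and did not pass (edgeR adjusted p = 0.0982). With FOXO3 none of these 10 passed in edgeR, while 3 had an unadjusted p under 0.05, near the 23.1% of all genes, the smallest for Map3k5, a kinase held inactive by thioredoxin, at 8.18 ± 0.831 with FOXO3, against 20.7 with the empty vector.

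A list of 8 genes was headed peroxiredoxin and methionine repair, although the sestrins in it are not taken here to be repair enzymes. Of these 8, 1 rose and 3 fell after Mll4 loss, beside 7.97% and 6.94% of all genes tested. None of the 3 that fell passed with total-count scaling. Sesn1, a stress-induced sestrin, rose to 26.9 ± 1.26 normalised CPM in deleted libraries, against 16.5 ± 0.848 in intact ones. Its relative Sesn2 fell to 40.4 ± 0.551 in deleted libraries, against 68.7 ± 11.8 in intact ones, and the methionine sulfoxide reductases Msra and Msrb1 fell by 0.86 and 0.65 on the log2 scale. With FOXO3, Sesn2 was the 1 of 8 that passed, beside 7.13% of all genes, at 49.7 ± 1.03 with FOXO3, against 25.5 with the empty vector. Srxn1, sulfiredoxin, which restores over-oxidised peroxiredoxins, averaged 89.3 ± 12.2 in deleted and 98.1 ± 23.2 in intact libraries, and did not pass.

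Of 9 glutaredoxin and glutathione genes, Gsr rose in both comparisons, beside 7.97% of all genes after Mll4 loss and 2.20% with FOXO3. Gsr, glutathione reductase, which recharges glutathione from NADPH as Txnrd1 does thioredoxin, averaged 246 ± 3.07 normalised CPM in deleted and 102 ± 14.7 in intact libraries (log2 fold change 1.28 ± 0.14, edgeR adjusted p = 0.00986, with 1.11e-16 to 0.0548 over the alternatives). With FOXO3 it averaged 1144 ± 1.17, against 416 with the empty vector (1.46 ± 0.18, edgeR adjusted p = 0.0106, with 3.56e-138 to 0.0951 over the alternatives). Glrx5, a mitochondrial glutaredoxin of iron-sulfur cluster assembly, fell with FOXO3 to 55.4 ± 2.70, against 90.6 with the empty vector.

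Of 8 genes of NADPH supply, 3 rose and none fell after Mll4 loss in edgeR, beside 7.97% and 6.94% of all genes tested. They were Nnt, the mitochondrial transhydrogenase, at 51.3 ± 0.0415 normalised CPM in deleted and 18.3 ± 2.80 in intact libraries, the mitochondrial isocitrate dehydrogenase Idh2 and the mitochondrial NAD kinase Nadk2. With FOXO3 none of the 8 passed in edgeR, with 1 at an unadjusted p under 0.05, beside 23.1% of all genes. Of 10 genes of disulfide formation in the endoplasmic reticulum, the disulfide isomerases Pdia6 and Txndc5 rose after Mll4 loss, beside 7.97% of all genes. They rose by 0.96 and 0.76 on the log2 scale. Txndc5 alone of the 10 fell with FOXO3, beside 4.93% of all genes, to 65.6 ± 0.468, against 135 with the empty vector. Of 8 selenoprotein synthesis genes, Eefsec, the elongation factor for selenocysteine, rose after Mll4 loss, beside 7.97% of all genes. None of these 8 passed with FOXO3 in edgeR, with 2 at an unadjusted p under 0.05, near the 23.1% of all genes.

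Of 10 NRF2 regulators and targets, 1 rose and 2 fell after Mll4 loss, beside 7.97% and 6.94% of all genes tested, and 2 fell with FOXO3, beside 4.93%. Nfe2l2, which encodes NRF2, averaged 115 ± 15.1 normalised CPM in deleted and 203 ± 16.0 in intact libraries, and Hmox1, haem oxygenase, averaged 161 ± 33.8 in deleted and 310 ± 36.8 in intact libraries. Nqo1, a quinone reductase, rose in deleted libraries at the edge of the threshold (edgeR adjusted p = 0.04998, with 0.00654 to 0.136 over the alternatives). With FOXO3 Nqo1 fell to 11.2 ± 0.620, against 36.0 with the empty vector, and Hmox1 to 8.45 ± 0.230, against 27.1 with the empty vector. Prdx1 and Txnrd1, whose promoters are printed above with the NRF2 letters, did not pass in either comparison.

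These pathway calls depended on single libraries, on the near-identical FOXO3 pair and in part on the scaling. With total-count scaling 14 of the 17 calls after Mll4 loss remained, without Msra, Msrb1 and Sesn2, and 5 of the 6 with FOXO3, without Sesn2. With that pair summed to 1 library, 3 of the 17 calls after Mll4 loss remained, Gsr, Nnt and Rrm2, and 0 of the 6 with FOXO3. Without either FOXO3 library the same 3 and 0 remained, without intact 1 there were 4 after Mll4 loss (Gsr, Nnt, Pdia6 and Rrm2), and with the compared libraries alone 0 after Mll4 loss and 6 with FOXO3. Without intact 2 there were 10 after Mll4 loss, and with the sex of the library as a term 11 after Mll4 loss and 4 with FOXO3. Of the genes with the smallest p in each list, those that did not pass after Mll4 loss were Gclc, of glutathione synthesis, with a log2 fold change of 0.52 ± 0.13, and Sephs1 with 0.36 ± 0.11. With FOXO3 they were Map3k5 with -1.34 ± 0.32, Txnrd3 with -0.81 ± 0.21, Msrb3 with -2.36 ± 0.78 and Ero1b with 0.65 ± 0.16. Nadk2 with -0.52 ± 0.17, Idh2 with -0.57 ± 0.23, Eefsec with -0.50 ± 0.17 and Trnau1ap with -0.32 ± 0.13 were the others. Msrb3 rests on few reads, with 9 and 5 counts in the FOXO3 libraries, against 46 in the empty vector library.

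**Figure D5:**
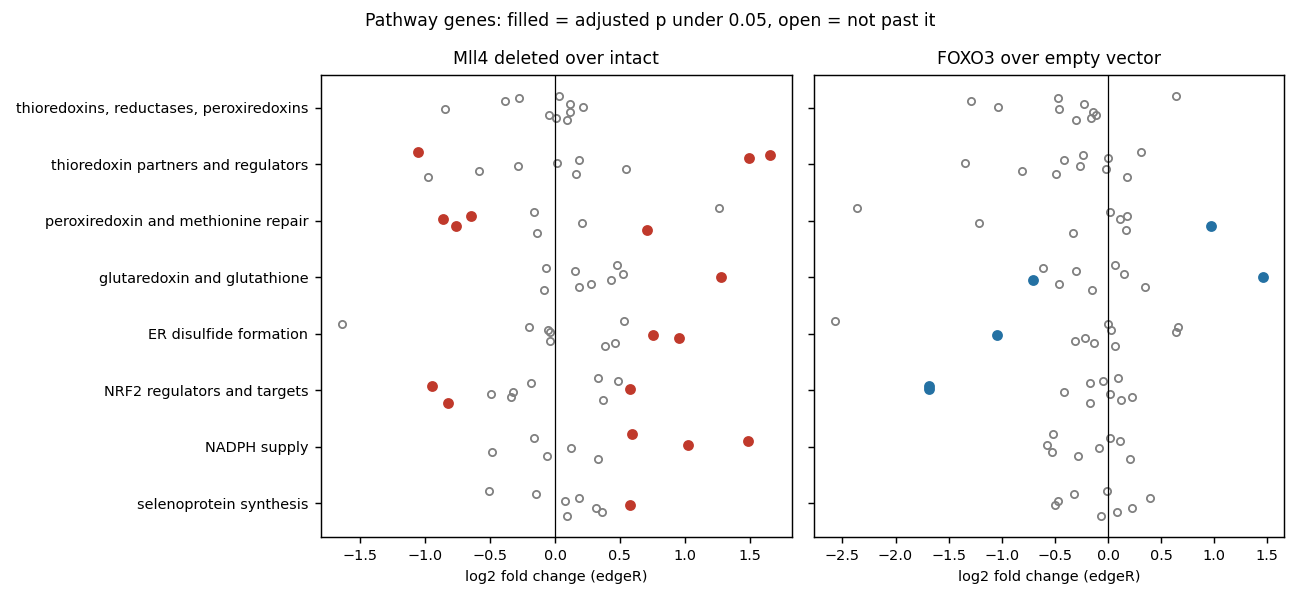
Log2 fold changes from edgeR of the 10 genes (top) and of 7 neighbouring pathway lists, Mll4 deleted over intact (left) and FOXO3 over empty vector (right). Filled points passed an adjusted p of 0.05, 17 on the left and 6 on the right, and none of them is among the 10 genes.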

How the data were processed

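The authors deposited 1 file per library with unnormalised read counts by NCBI gene number. Reads were mapped to mm9 with tools that included TopHat2 2.0.11 and Bowtie 0.12.8, per the submitters' processing notes. How reads were counted, with which annotation and whether by strand, is not given in the sources used here. Processed copies, overlapping genes and antisense genes may therefore share reads with a member. Names came from RefSeq (GRCm38.p6), which matched 23185 of 23282 gene numbers. Transcript and coding lengths came from GENCODE vM21.

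The 7 MLL-AF9 libraries entered 1 edgeR 4.0.16 quasi-likelihood fit (R 4.3.3) with TMM scaling, the default expression filter and 1 coefficient for each of 4 groups. P-values were adjusted by Benjamini-Hochberg over 14997 genes. LSK libraries were compared by CPM ratios. All 10 members are reported. Of each pathway list the rule took the genes past the threshold and the 2 with the smallest p in each comparison. Txnip and Srxn1 are named besides, chosen after their values were seen. Members and lists were chosen with earlier results of these data known. Alternatives were other scalings and filters, DESeq2 1.42.0, the compared libraries alone, a replicate block, libraries left out, the FOXO3 pair summed and, chosen after seeing the data, the sex of the library as a term.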

Additional observations from a re-analysis of the deposited data

How the results depend on the processing

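Counts of genes called after Mll4 loss (2237) became 3540 with total-count scaling (2940 higher, 600 lower), 3695 with DESeq2, 0 with the compared libraries alone, 312 with the FOXO3 pair summed and 302 to 3106 with 1 library left out (787 without intact 1, 1199 without intact 2, 302 without FOXO3 1 and 314 without FOXO3 2). The members called stayed at 0 except for 1, Prdx3, with total-count scaling. With FOXO3 the count (1069) became 2178 with DESeq2, 9710 with the compared libraries alone, 178 with the pair summed and 140 to 2213 with 1 library left out (2213 and 2121 without deleted 1 or 2, 159 and 140 without FOXO3 1 or 2). Members called with FOXO3 were 1 with DESeq2, 9 with the compared libraries alone, 2 with the replicate block (Prdx2, adjusted p = 0.0493, and Prdx4, 0.0478) and 0 to 1 with 1 library left out, Prdx5 without deleted 1 (adjusted p = 0.04998) and Prdx2 without intact 1 (0.0412) or intact 2 (0.0423). No value can be had without the empty vector library. The replicate numbers were not shown to pair the libraries: correlations of same-numbered deviations were 0.18 for deleted with intact, 0.02 for deleted with FOXO3 and 0.01 for intact with FOXO3. The replicate block called 2393 genes after Mll4 loss and 1080 with FOXO3. In LSK cells 4 members passed 2-fold under each scaling and 6 passed 1.5-fold, and the number of genes highest in LSK stayed at 6.

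Estimates of 8 members after Mll4 loss changed sign in places, among them Prdx4, the second largest, Prdx5 and Prdx2. Total-count scaling gave Txnrd1 0.244 and Prdx5 0.002. Txnrd1 was 0.026 without the filter, 0.010 with the compared libraries alone and 0.029 with the FOXO3 pair summed, and Txn2 was -0.007 with a filter at 5 CPM. With 1 library left out, log2 fold changes ranged from -0.071 to 0.315 for Txn1, -0.114 to 0.136 for Txn2, -0.236 to 0.175 for Txnrd1 and -0.116 to 0.652 for Prdx2. They ranged from -0.022 to 0.271 for Prdx3, -0.838 to 0.232 for Prdx4, -0.180 to 0.281 for Prdx6 and, with no change of sign, -1.274 to -0.237 for Prdx1, and with FOXO3 from -0.248 to 0.002 for Txnrd2. The cause was not tested. Single libraries for the empty vector and each LSK genotype, and a FOXO3 pair that differed by little more than sampling noise, limit the precision.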
